A study of Homo sapiens with 16 samples.

Results

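NF-κB is a family of dimeric transcription factors that switch on genes of inflammation, immunity and cell survival, and the TRAF proteins are adaptors that link receptors of the tumour necrosis factor family to it. Regions bound by BCL11A or ZBTB7A were described here at 10 of its genes, among 19343 protein-coding genes of the deposited annotation. They are the inhibitors TNFAIP3 and NFKBIA, the subunits NFKB1, NFKB2, RELA, RELB and REL, and the adaptors TRAF1, TRAF2 and TRAF4. The genes were chosen by rank in the K562 ZBTB7A list, which has regions at its top near TNFAIP3 and TRAF4, so the K562 values at these genes are given as a description. Across 4 deposited lists, 200 of 85461 listed regions lay in these genes or within 50 kb of them.

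BCL11A and ZBTB7A are zinc-finger repressors best known for silencing the fetal γ-globin genes, and their binding was located by chromatin immunoprecipitation with sequencing (ChIP-seq). BCL11A was measured in HUDEP-2 cells, an immortalised line of human erythroid progenitors, as a BCL11A-ER-V5 fusion induced for 24 h with 1e-07 M 4-hydroxytamoxifen (2 ChIP and 2 control libraries), so its list describes a tagged, introduced protein. ZBTB7A was measured in K562, an erythroleukaemia line (4 ChIP and 4 control libraries). It was also measured in HUDEP-2 ΔGγ cells, which lack the Gγ-globin gene HBG2, with the 195C>G substitution in the remaining γ-globin promoter or with the WT promoter (1 ChIP and 1 control library each). The titles of the controls name them input and their antibody label is IgG.

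The lists held 12911 regions for BCL11A, 17331 for K562, 18784 for 195C>G and 36435 for WT. The BCL11A and K562 lists pool replicates and the other lists rest on 1 library each, so no value has an error between replicates and no test was possible. Read depth is unknown, and the longer WT list offers more regions to every gene. Ranks follow the authors' value per region (a score for BCL11A, a signal for 195C>G and WT) or, in K562, the order of the list, which carries no value. A rank is read within its own list, where rank 1 is the strongest by value. In K562 rank 1 is the first region listed, and whether that order follows strength was not tested. For K562, strong and weak therefore mean early and late in the list. The lists hold no expression values, so the cell types were not checked against their marker genes.

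In resting cells, NF-κB dimers are held in the cytoplasm by IκB proteins such as the product of NFKBIA. Receptors recruit TRAF proteins and ubiquitin chains, which activate a kinase complex that marks IκB for destruction and frees NF-κB. NFKBIA and TNFAIP3, whose product A20 edits ubiquitin chains, are targets of NF-κB in turn and close a negative feedback loop. In the non-canonical branch, the NFKB2 product is processed to a subunit that acts with RELB.

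Promoter sequences of some of the genes are printed below, and several of the regions described later lie outside them. Each sequence runs 5′ to 3′ on the strand of its gene, from 250 bases before to 50 after a RefSeq start (GRCh38.p14). Capitals mark GACCC, a core of the ZBTB7A motif, on either strand (GGGTC on the other), and matches to the κB consensus, the site that NF-κB binds. The intervals are chr6:137867009-137867308 for TNFAIP3 (plus strand), chr14:35404700-35404999 for NFKBIA (minus), chr4:102501109-102501408 for the first NFKB1 start (plus), chr10:102394328-102394627 for the second NFKB2 start (plus), chr2:60881324-60881623 for REL (plus) and chr17:28743761-28744060 for TRAF4 (plus).
TNFAIP3: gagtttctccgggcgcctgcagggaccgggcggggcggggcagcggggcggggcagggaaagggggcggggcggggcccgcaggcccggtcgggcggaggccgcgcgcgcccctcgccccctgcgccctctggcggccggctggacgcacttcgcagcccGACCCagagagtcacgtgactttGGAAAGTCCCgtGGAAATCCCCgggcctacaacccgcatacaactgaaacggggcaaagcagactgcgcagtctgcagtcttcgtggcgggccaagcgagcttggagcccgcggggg
NFKBIA: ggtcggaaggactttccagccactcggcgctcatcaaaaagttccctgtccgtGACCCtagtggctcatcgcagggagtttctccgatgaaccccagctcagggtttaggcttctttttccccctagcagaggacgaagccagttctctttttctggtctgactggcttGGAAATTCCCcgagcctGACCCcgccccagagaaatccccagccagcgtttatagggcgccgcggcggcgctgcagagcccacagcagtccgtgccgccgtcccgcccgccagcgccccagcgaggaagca
NFKB1: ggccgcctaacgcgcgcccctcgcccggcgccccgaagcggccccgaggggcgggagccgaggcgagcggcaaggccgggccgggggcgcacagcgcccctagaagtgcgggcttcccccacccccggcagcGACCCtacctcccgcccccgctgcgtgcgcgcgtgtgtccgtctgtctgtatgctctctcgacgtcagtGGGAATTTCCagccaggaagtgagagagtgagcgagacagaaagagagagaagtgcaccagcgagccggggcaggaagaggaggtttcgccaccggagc
NFKB2: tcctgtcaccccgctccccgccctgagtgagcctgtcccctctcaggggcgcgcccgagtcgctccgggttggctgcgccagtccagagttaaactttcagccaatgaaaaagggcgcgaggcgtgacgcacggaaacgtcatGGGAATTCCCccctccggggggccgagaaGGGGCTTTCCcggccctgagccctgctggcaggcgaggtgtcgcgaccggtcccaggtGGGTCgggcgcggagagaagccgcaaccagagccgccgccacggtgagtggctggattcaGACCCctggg
REL: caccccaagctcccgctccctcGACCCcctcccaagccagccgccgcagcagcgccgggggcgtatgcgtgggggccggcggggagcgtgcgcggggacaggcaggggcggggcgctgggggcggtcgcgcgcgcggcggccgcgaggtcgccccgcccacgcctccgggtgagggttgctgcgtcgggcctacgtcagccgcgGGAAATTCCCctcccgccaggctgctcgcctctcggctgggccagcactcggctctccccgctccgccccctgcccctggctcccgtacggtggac
TRAF4: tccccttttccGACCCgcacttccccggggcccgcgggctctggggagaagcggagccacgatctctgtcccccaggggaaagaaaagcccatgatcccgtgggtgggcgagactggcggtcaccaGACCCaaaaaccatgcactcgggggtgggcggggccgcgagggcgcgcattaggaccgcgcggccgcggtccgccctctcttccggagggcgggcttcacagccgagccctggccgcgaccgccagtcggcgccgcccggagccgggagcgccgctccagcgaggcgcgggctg

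Of the 10 genes, 9 had a RefSeq promoter sequence in the table used here, with 15 sequences in all. GACCC was found in at least 1 promoter of 9 of these 9 genes and in 10 of the 15 sequences, and 47.6% of all 35116 RefSeq promoters of the same length held it. TGACCA, the core of the BCL11A motif, was found on neither strand in any of the 15 sequences, and in 10.7% of all promoters. The κB consensus matched in 5 genes, TNFAIP3, NFKBIA, NFKB1, NFKB2 and REL, in 6 of 15 sequences, against 7.73% of all promoters. These shares of all promoters are per sequence and compare with the counts of sequences. Some genes have several sequences, and no share per gene was computed for the counts of genes. The κB matches of TNFAIP3 began at -67 and -55 from the start, that of NFKBIA at -81, that of NFKB1 at -49 and that of REL at -46. These matches are letters in a window and say nothing of whether a factor was there.

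The regions covered these windows to different extents. The REL window was covered over 187 of its 300 bases by BCL11A regions and over 300 bases by those of K562, of 195C>G and of WT. The NFKBIA window was covered over 300 bases in 195C>G and 286 in WT, and over 0 in BCL11A and in K562. The first NFKB1 window was covered over 229 bases in K562, 92 in 195C>G and 300 in WT, and over 0 in BCL11A. The second NFKB2 window was covered over 145 bases by BCL11A regions and over 0 bases in the ZBTB7A lists. In TRAF4, BCL11A regions covered 203 bases and WT regions 214, while K562 and 195C>G regions covered 0. At TNFAIP3 only the 195C>G list touched the window, over 81 bases, since the main regions there lie farther upstream or inside the gene.

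A promoter region, one whose summit or midpoint lies within 1 kb of the start of a protein-coding transcript, was present for most of the 10 genes. In the BCL11A list 6 genes had one (NFKB1, NFKB2, RELA, REL, TRAF2 and TRAF4), against 24.4% of all genes. In K562 7 had one (TNFAIP3, NFKBIA, NFKB1, RELA, REL, TRAF2 and TRAF4), against 33.2%, and this list chose the genes. In 195C>G 7 had one (TNFAIP3, NFKBIA, NFKB1, RELA, REL, TRAF1 and TRAF4), against 29.1%. In WT 8 had one, these 7 and RELB, against 44.9%. A promoter region in all 4 lists was found for 4 genes, NFKB1, RELA, REL and TRAF4, against 10.0% of all genes. The 4 lists include K562, which chose the genes. With the stronger 50% of the BCL11A list the count was 2 (13.8% of all genes), and with a promoter of 500 bp the K562 count was 3 (28.6%).

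**Figure D1:**
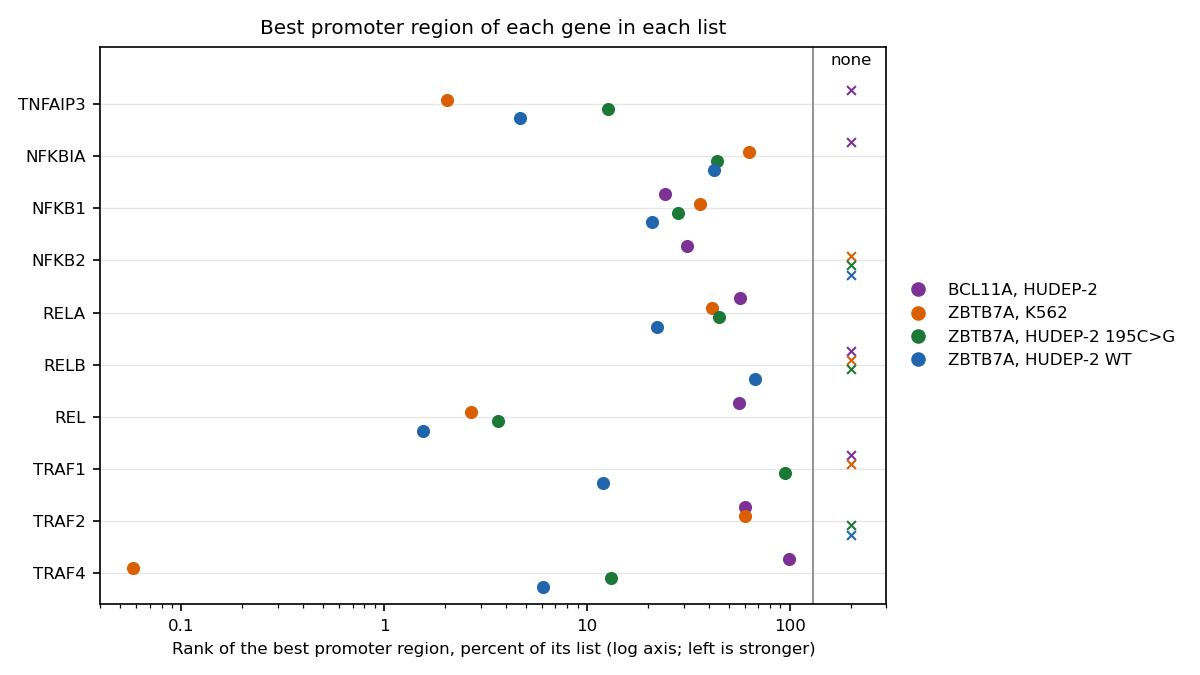
Best promoter region of each of the 10 genes in each list, as its position in the list in percent (log axis, the left end is the top of the list). K562 TRAF4 (rank 10), K562 TNFAIP3 (rank 354) and REL in the 3 ZBTB7A lists lie nearest to the top. A cross at the right marks a list with no promoter region.

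Regions inside the gene itself, between its outermost start and end, were found in BCL11A for 5 of the 10 genes (26.7% of all genes), in K562 for 6 (30.8%), in 195C>G for 5 (30.1%) and in WT for 8 (45.4%). With the stronger 50% of the list the count was 2 in BCL11A (15.6% of all genes) and 3 in 195C>G (18.7%). With 50 kb on each side included, each list had a region for 9 of the 10 genes, against 60.2% of all genes in BCL11A, 67.7% in K562, 64.8% in 195C>G and 77.1% in WT. The gene without one was NFKBIA in BCL11A, TRAF1 in K562 and TRAF2 in both 195C>G and WT. A region among the first 10% of its list was found in the windows of 1 gene in BCL11A, RELA (14.8% of all genes). In K562 the windows of 4 had one, TNFAIP3, NFKBIA, REL and TRAF4 (19.6%), but K562 ranks chose the genes, so this count only describes them. Such a region was found for 3 in 195C>G, TNFAIP3, RELB and REL (18.8%), and for 6 in WT, TNFAIP3, NFKB2, RELB, REL, TRAF1 and TRAF4 (31.0%).

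**Figure D2:**
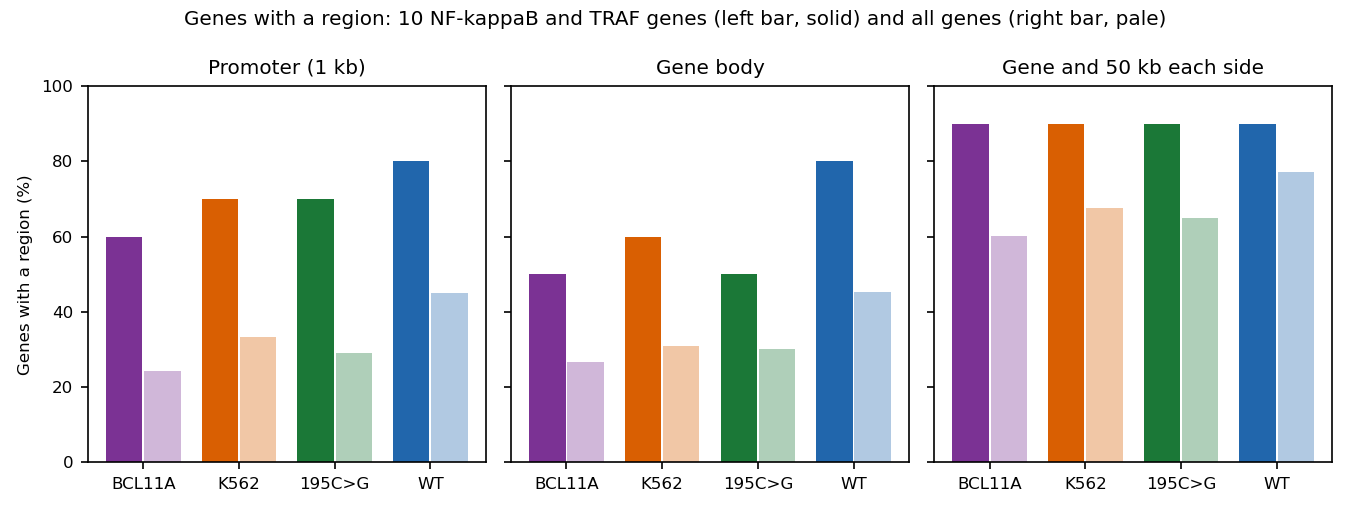
Percent of genes with at least 1 region at the promoter, in the gene body or in the gene and 50 kb on each side, for the 10 genes (solid, left bar) and for all 19343 genes (pale, right bar) in each list. The solid bar is the taller in every pair, and each solid step of 10% is 1 gene. The K562 list chose the genes, so its solid bars are a description.

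The windows of the 10 genes held a median of 3.5 regions in BCL11A, 4.0 in K562, 3.5 in 195C>G and 6.5 in WT. The medians over all genes were 1.0, 1.0, 1.0 and 3.0, and the K562 list chose the 10 genes. The counts per gene ran from 0 to 9, 0 to 10, 0 to 7 and 0 to 16 in the same order. In total the windows held 40 BCL11A, 45 K562, 37 195C>G and 78 WT regions. With overlapping regions of a list merged, the totals were 39, 39, 33 and 54. Regions in the flanks made up 32, 31, 24 and 55 of the unmerged regions, and 15, 14, 11 and 26 of the flank regions lay at the promoter of another gene.

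**Figure D3:**
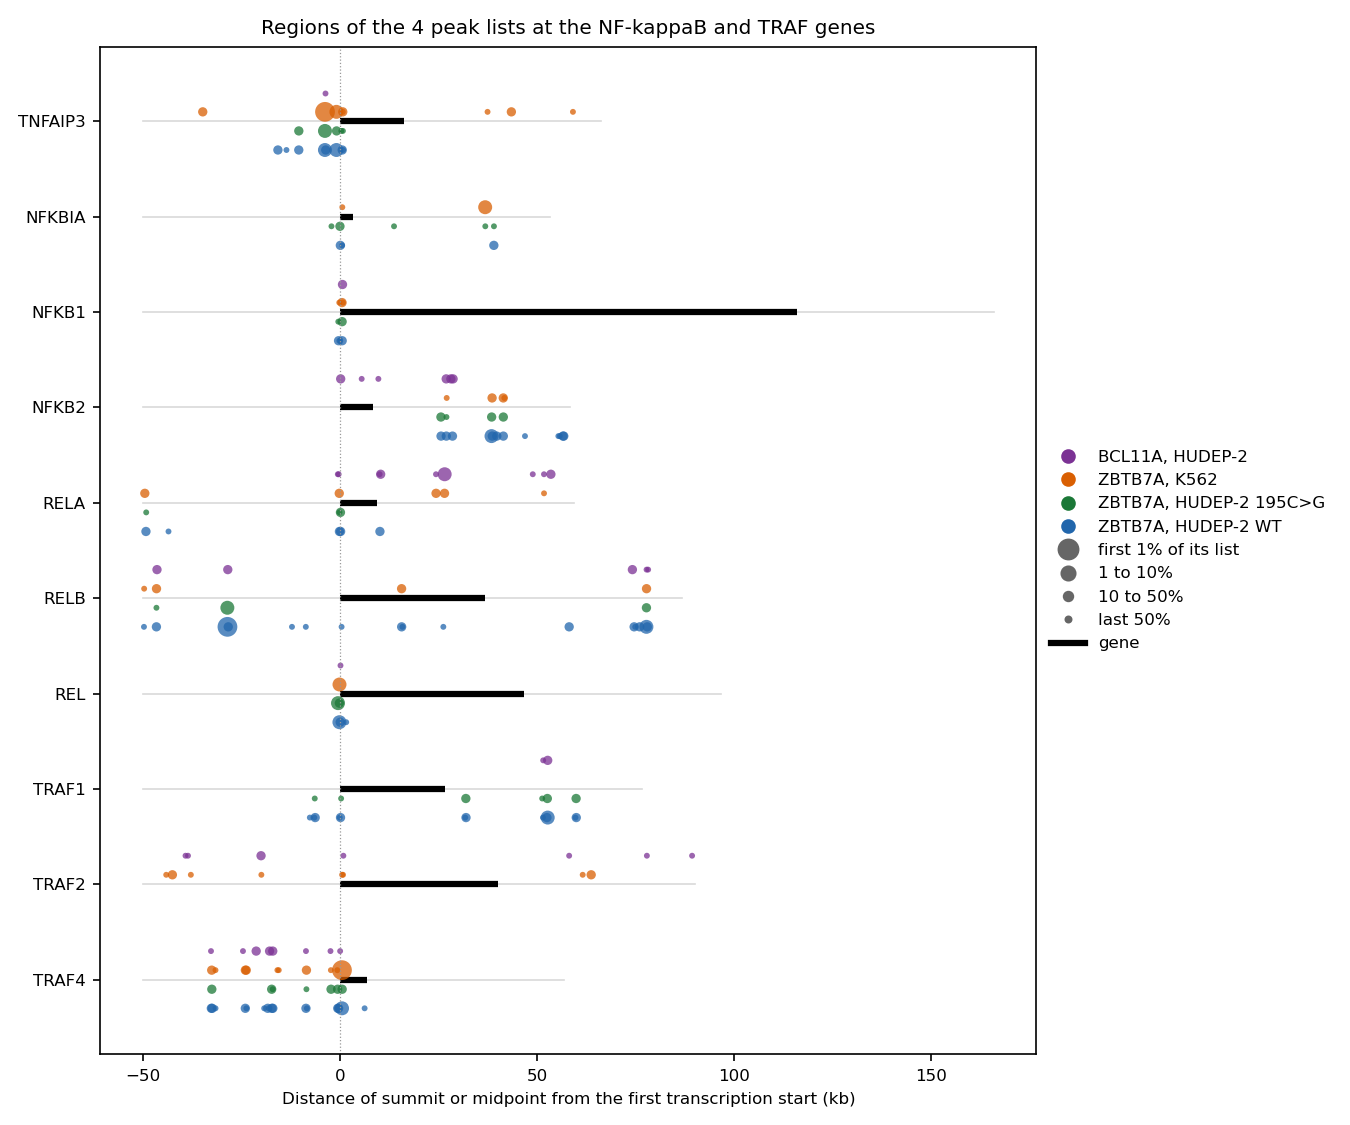
Regions of the 4 lists in each gene and 50 kb on each side, drawn by distance from the start of the gene along its strand (kb). NFKB1 and REL carry regions at the gene and none in the flanks, whereas the windows of RELB and TRAF4 are filled mostly by flank regions.

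The first group is the inhibitors. TNFAIP3 lies on chromosome 6 (137867188 to 137883314, hg38, plus strand). Its best region in each of the 4 lists was the same intergenic site upstream of the start, spanning -4082 to -3519 bp in K562. There the BCL11A region had rank 6811 and a score of 27.9 (137863215 to 137863584), and the K562 region rank 2 (137863106 to 137863669). The 195C>G region had rank 578 and a signal of 126 (137863179 to 137863593), and the WT region rank 653 and a signal of 118 (137863129 to 137863629). The site thus stood near the top of the 3 ZBTB7A lists and in the middle of the BCL11A list.

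Nearer to TNFAIP3, only ZBTB7A regions were listed. Just before the start, K562 had rank 354 (-911 bp), 195C>G rank 2388 with a signal of 76.9 (-868 bp) and WT rank 1705 with a signal of 86.2 (-907 bp). A further cluster inside the gene, still within 1 kb of the start, had best ranks of 1773 in K562, 10293 in 195C>G and 7714 in WT. A site at -10451 bp was listed in 195C>G (rank 2318, signal 77.8) and, at -10461 bp, in WT (rank 4623, signal 56.5), and not in K562 or BCL11A. K562 alone had regions lower in its list at -34835, 37455, 43501 and 59130 bp (ranks 5336, 10673, 4921 and 12538). WT alone had 1 at -15758 bp and 1 at -13589 bp (ranks 10232 and 22492).

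**Figure D4:**
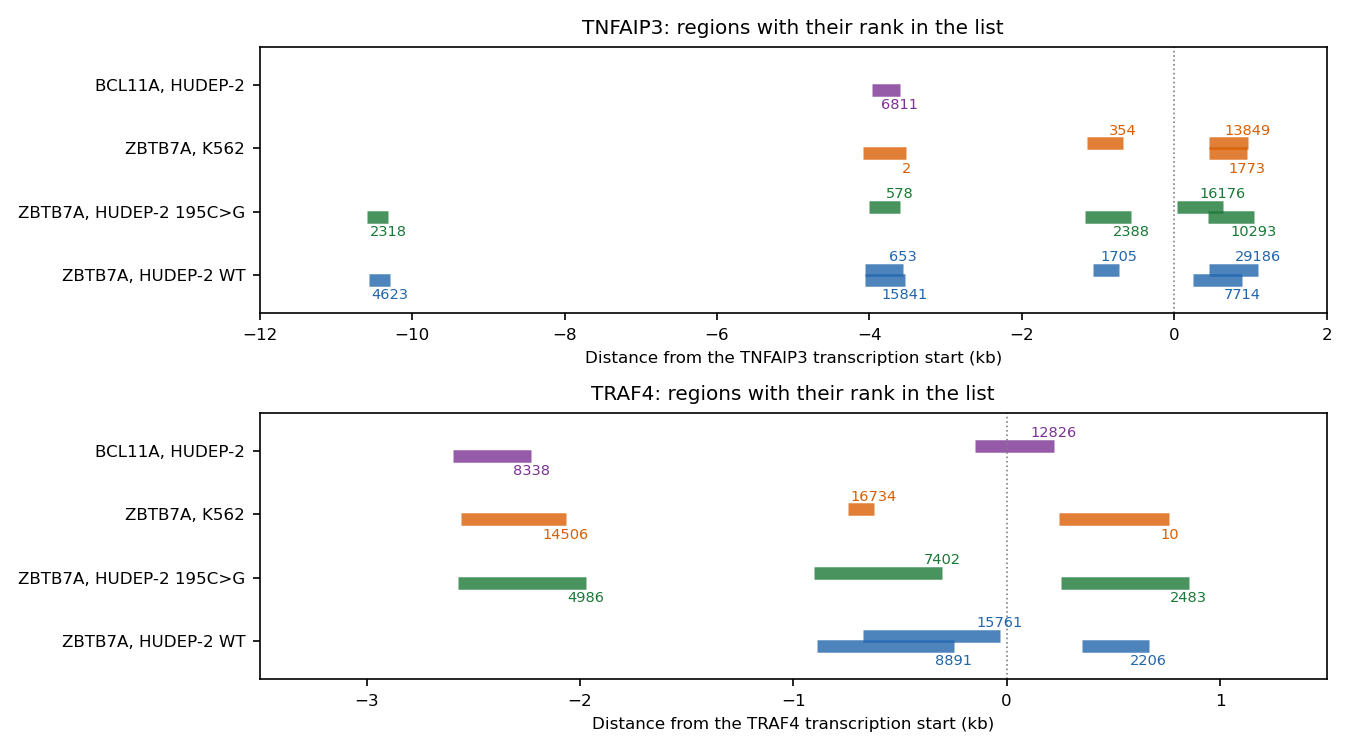
Regions around the starts of TNFAIP3 and TRAF4 by distance from the start (kb), with 1 row per list. Numbers are ranks. The upstream TNFAIP3 site with ranks 6811, 2, 578 and 653 is present in every row, and the K562 region of rank 10 inside TRAF4 coincides with 195C>G and WT regions and has a BCL11A region beside it.

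NFKBIA lies on chromosome 14 (35401510 to 35404754, minus strand) and encodes IκBα, which binds NF-κB and keeps it out of the nucleus. No BCL11A region was listed in its window, and the nearest lay 62719 bp from its start. ZBTB7A promoter regions were of middle rank: 10878 in K562 (593 bp inside the gene), 8220 in 195C>G (signal 43.1, -8 bp) and 15397 in WT (signal 28.7, 90 bp). The 195C>G and WT regions reached over the κB and GACCC letters printed above, and the K562 region lay farther inside the gene. The first-listed K562 region of the window, rank 1182, lay 36853 bp beyond the start, past the end of the gene. A 195C>G region of rank 9768 overlapped it and no WT region did. Another 195C>G region at 39080 bp (rank 10278) had a WT counterpart (rank 15749), while 195C>G regions at -2161 and 13717 bp had none.

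The subunits come next. NFKB1, on chromosome 4 (102501329 to 102617302, plus strand), encodes p105 and its product p50. Its promoter, with 2 starts, held every region of its window, and the flanks held none in any list. The BCL11A region had rank 3135 (score 53.6, 102501643 to 102502012), the best rank of a BCL11A promoter region among the 10 genes. At the same place K562 had rank 6267, 195C>G rank 5318 (signal 53.9) and WT rank 7655 (signal 43.6). A ZBTB7A site before the first start, with no BCL11A region, had ranks 9309 in K562, 11435 in 195C>G and 8053 in WT. BCL11A and ZBTB7A regions met at the second start, whose promoter sequence held neither GACCC nor a κB match, whereas the first window, printed above, held both.

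REL, on chromosome 2 (60881495 to 60928156, plus strand), encodes c-Rel, a subunit best known in lymphocytes. Its promoter carried 1 site in all 4 lists, from -777 to 378 bp. The BCL11A region there had rank 7261 (score 26.3, 60881437 to 60881806), K562 rank 464 (60880718 to 60881859), 195C>G rank 682 (signal 119) and WT rank 570 (signal 123). Apart from 1 weak WT region at 1578 bp (rank 30060), no other region was listed in the gene or its flanks. The start of REL lies 328 kb from that of BCL11A itself.

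RELA, on chromosome 11 (minus strand, 65648668 to 65658044 in the modified chromosome of the 195C>G and WT lists, 65653596 to 65662972 in hg38), encodes p65, the main activating subunit. A promoter site was listed in all 4 lists at ranks 7310 in BCL11A (score 26.1, -335 bp), 7161 in K562 (-187 bp), 8426 in 195C>G (signal 42.5, 117 bp) and 8059 in WT (signal 42.4, -140 bp). These ranks lie in the middle of the BCL11A, K562 and 195C>G lists and in the stronger part of the WT list. The strongest region of the window was a BCL11A region of rank 739 (score 144.7) in an exon of PCNX3, 26569 bp beyond the RELA start. K562 had rank 5707 there, and neither 195C>G nor WT had a region there.

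NFKB2, on chromosome 10 (102394110 to 102402529, plus strand), encodes p100, the precursor of the non-canonical subunit p52. It had a BCL11A promoter region (rank 4014, score 44.2, 102394103 to 102394472) and a BCL11A region in a coding exon (rank 7620, score 25.2). No ZBTB7A list had a region at its promoter or in its body. The nearest ZBTB7A regions lay 25598 bp from a start of NFKB2 in K562, 24133 bp in 195C>G and 24161 bp in WT. The best-ranked ones of the HUDEP-2 lists in its window stood at the promoter of CUEDC2, at ranks 2273 in 195C>G and 2847 in WT, with K562 at rank 6342.

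RELB, on chromosome 19 (45001449 to 45038198, plus strand), encodes the partner of p52. Its own promoter had a single weak region, in WT (rank 24607, signal 20.4). A region in an intron of RELB, was listed in K562 (rank 6468, 15638 bp from the start) and WT (rank 8743, 15653 bp). The strongest regions of its window lay upstream in an intron of CLPTM1: rank 199 in 195C>G (signal 167, 44972684 to 44973063) and rank 308 in WT (signal 145, 44972657 to 44973077), with BCL11A at rank 2084 (score 71.6) and no K562 region. At the start of GEMIN7, beyond the other end, BCL11A had rank 12147, K562 3720, 195C>G 2058 (signal 81.6) and WT 577 (signal 122). Both sites belong by position to neighbouring genes, and which gene either acts on is not known from these data.

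The adaptors are the last group. TRAF4, on chromosome 17 (28744005 to 28750958, plus strand), encodes a TRAF protein studied mainly in development and epithelial cells. Its K562 region of rank 10 lay in an intron 503 bp past the start (28744249 to 28744768), with 195C>G at rank 2483 (signal 75.8, 554 bp) and WT at rank 2206 (signal 77.7, 517 bp). The BCL11A promoter region of TRAF4 (28743858 to 28744227) was among the weakest of its list, rank 12826 with a score of 13.2, and ended 21 bp before the K562 region. A ZBTB7A site before the start, lower in each list, had ranks 16734 in K562, 7402 in 195C>G and 8891 in WT. Within the neighbouring NEK8 gene, a site upstream of TRAF4 (-8513 bp in K562) was present in all 4 lists, at ranks 8408 in BCL11A, 2897 in K562, 9671 in 195C>G and 8415 in WT. The strongest BCL11A region of the window, rank 1697 (score 83.0), stood at the promoter of TLCD1.

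TRAF1, on chromosome 9 (120902393 to 120929173, minus strand), encodes an adaptor that is itself induced by NF-κB in lymphocytes. K562 had no region in its window, the nearest being 121099 bp from a start. Its promoter was listed at rank 17905 in 195C>G (signal 26.6) and at rank 4365 in WT (signal 58.0). BCL11A regions were found only at the promoter of the neighbour PHF19, at ranks 5872 and 7978, where 195C>G had a best rank of 2767 and WT of 1815. A site downstream of TRAF1 was listed at rank 3429 in 195C>G and 5077 in WT.

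TRAF2, on chromosome 9 (136886513 to 136926615, plus strand), encodes the adaptor that recruits ubiquitin ligases to the TNF receptor. Its promoter was listed at rank 7752 in BCL11A (score 24.7, 859 bp) and at rank 10408 in K562 (540 bp). The first-listed K562 region of the window, rank 2877, was intergenic, 63763 bp past the TRAF2 start. The promoter of the neighbour EDF1 held the best BCL11A region of the TRAF2 window, rank 4997, with K562 at rank 8914. Neither HUDEP-2 ZBTB7A list had a region in its window, the nearest being 105637 bp from the start in 195C>G and 102208 bp in WT. Within 1 Mb on each side of TRAF2 there were 23 regions in 195C>G and 30 in WT, against 88 in BCL11A and 104 in K562. These were 0.122% of the 195C>G list and 0.0823% of the WT list, against 0.682% of the BCL11A list. The scarcity thus covered the surroundings of TRAF2 as well, and its part in the missing TRAF2 regions was not tested.

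Joining overlapping regions at the 10 genes gave 86 sites. Of these, 42 (48.8%) were in 1 list, 21 in 2, 13 in 3 and 10 (11.6%) in all 4. Without chromosome 11, which the lists place differently, 39 of 77 sites at the genes were in 1 list (50.6%, against 51.1% of 38003 sites over all regions). In all 4 lists were 9 of 77 (11.7%, against 6.57%), and K562, which chose the genes, is among the 4. The 10 shared sites comprised 4 at the promoters of the genes themselves, 3 at promoters of other genes (CLPTM1, GEMIN7 and PROCA1) and 3 at no promoter, among them the TNFAIP3 site. Regions are joined in chains, so those of a site need not all overlap each other. In the shared TRAF4 promoter site, the BCL11A region (rank 12826) overlapped neither the K562 region (rank 16734) nor the 195C>G region (rank 7402). WT regions joined them. Sites of 1 list were most often from WT (17), then BCL11A (13), K562 (10) and 195C>G (2). The WT list is the longest, and this split was not made over all sites, so it is no result about these genes.

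In the HUDEP-2 ΔGγ cells, a 195C>G region overlapped 47 of the 78 WT regions by at least 1 bp, 60.3% (Clopper-Pearson 95% interval 48.5 to 71.2%, counting error only), against 54.3% of the whole WT list. From the WT ranks of the 78 regions, 46.5 overlapped regions would have been found at the rates of the whole list. In the other direction, 32 of 37 195C>G regions (86.5%) were overlapped in WT, against 89.3% of the whole 195C>G list. Among the stronger 50% of the WT list, 38 of 50 regions at the 10 genes were overlapped (76.0%, against 75.5% of the whole), and among the weaker 50% 9 of 28 (32.1%, against 33.2%). The shares at these genes therefore lay close to those of regions of like rank elsewhere.

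By position, 17 of 18 WT regions at the promoters of the 10 genes themselves were overlapped in 195C>G, and the one that was not was the weak region of RELB. At promoters of any gene, the neighbours included, 33 of 44 WT regions were overlapped (75%), against 62.6% of all WT promoter regions. Away from promoters 14 of 34 were overlapped (41.2%), against 49.6% of all such WT regions, so promoter regions had the higher share in the whole list as well. All WT regions of NFKBIA (3 of 3) and NFKB1 (3 of 3) were overlapped, as were 11 of 12 at TRAF1, 6 of 8 at TNFAIP3, 2 of 3 at REL and 3 of 5 at RELA. At TRAF4 9 of 16 were overlapped, at NFKB2 5 of 12 and at RELB 5 of 16. Several regions of one list overlap each other, so these counts are of listed regions and not of separate sites. Within 1 Mb on each side of RELB there were 67 regions in 195C>G and 197 in WT, 0.357% and 0.541% of their lists. Chromosome 19 as a whole held 1319 regions in 195C>G and 3988 in WT. The part of these surroundings in the low RELB share was not tested.

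**Figure D5:**
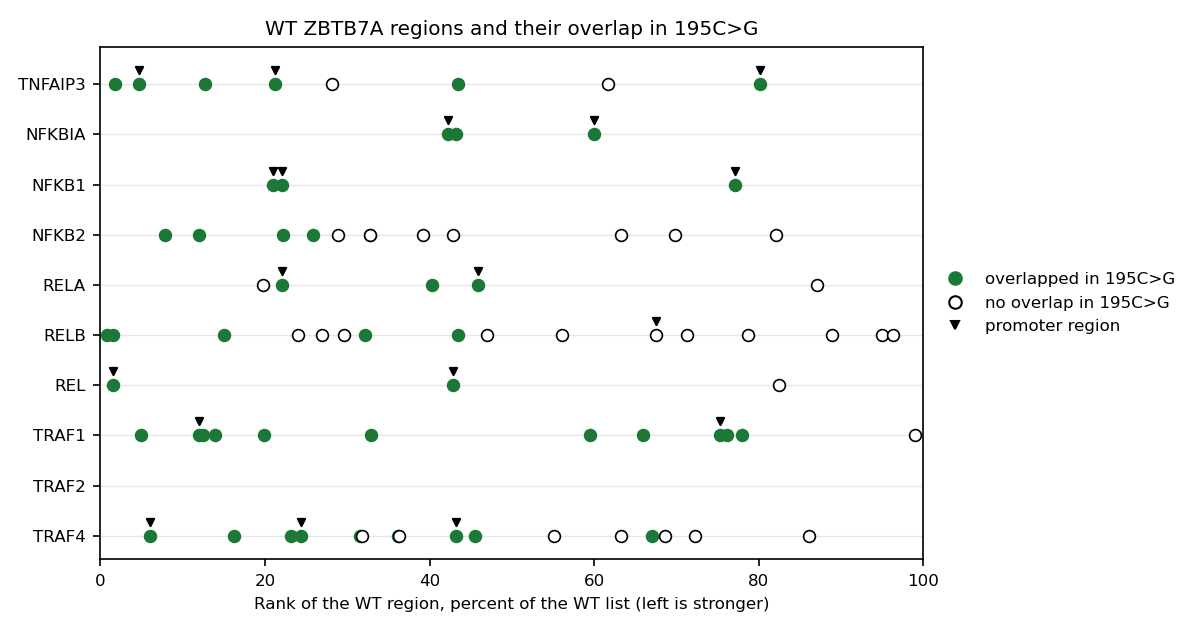
WT regions at each of the genes, by their rank as a percent of the WT list. Filled points are overlapped by a 195C>G region, open points are not, and triangles mark promoter regions. The overlapped count runs from 3 of 3 at NFKBIA and NFKB1 to 5 of 16 at RELB.

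Between the factors, chromosome 11 was left out because the lists use different builds of it, which leaves 31 BCL11A regions. K562 regions overlapped 11 of them, 35.5% (95% interval 19.2 to 54.6%), against 31.8% of the BCL11A list. Regions of 195C>G overlapped 14 (45.2%, against 39.6%) and WT regions 17 (54.8%, against 57.5%). A region of any ZBTB7A list overlapped 20 (64.5%, against 66.9%). In each of these 4 comparisons the share of the whole list lay within the 95% counting interval of the share at the 10 genes. The interval is wide and counts neighbouring regions as independent, so it cannot show that the shares are alike. With a reciprocal overlap of 50% the shares at the genes were 25.8% for 195C>G (22.7% of the whole list) and 32.3% for WT (33.5%). For K562, which chose the genes, the share was 29.0% (9 of 31), against 18.8% of the whole list. The BCL11A regions at the promoter of NFKB2 and in its body were among those without a ZBTB7A region.

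The distances chosen leave some regions just inside and just outside. The outermost promoter regions inside 1 kb were those of TNFAIP3, at -911 bp in K562, -907 bp in WT and -868 bp in 195C>G, and the nearest outside were the WT region of REL at 1578 bp and the 195C>G regions of NFKBIA at -2161 bp and of TRAF4 at -2271 bp. At the outer limit, the WT region farthest inside the RELB window lay 49755 bp from the gene (rank 35078), and a 195C>G region near TRAF4 lay outside at 51709 bp (rank 14685).

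Another 54 genes of the pathway were examined by promoter alone. BCL11A had a promoter region at 26 of them (48.1%, against 24.4% of all genes) and K562 at 32 (59.3%, against 33.2%). In 195C>G there were 23 (42.6%, against 29.1%) and in WT 30 (55.6%, against 44.9%). All 4 lists had one at 14 of the genes (25.9%, against 10.0% of all genes). Among the receptors, 3, 3, 4 and 5 of 8 had a region in BCL11A, K562, 195C>G and WT, and the best promoter rank among the 54 genes in each ZBTB7A list fell to IL1R1, the interleukin-1 receptor, at rank 330 in K562, 117 in 195C>G and 292 in WT. Among the adaptors and the kinases that act with them at receptors, such as IRAK1 and IRAK4, the counts were 4, 5, 3 and 3 of 10 in the same order of lists, with MYD88, the adaptor of Toll-like and interleukin-1 receptors, at rank 742 in WT.

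Among the downstream kinases and their partner subunits they were 5, 6, 5 and 5 of 9 (all genes 24.4, 33.2, 29.1 and 44.9%). TBK1, an IκB kinase relative, had the best BCL11A rank, 589, and TAB2, which binds ubiquitin chains for the kinase TAK1, had rank 1419 in 195C>G. Among the inhibitors they were 2, 4, 1 and 4 of 5, with NFKBIE, which encodes IκBε, at BCL11A rank 990. Among the ubiquitin editors and ligases they were 9, 10, 7 and 10 of 13. OTULIN, which removes linear ubiquitin chains, had BCL11A rank 1279. SHARPIN, a subunit of the ligase that makes them, had rank 1231 in K562, 1034 in 195C>G and 988 in WT.

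Among the target genes they were 3, 4, 3 and 3 of 9, and IER3, an early response gene, had K562 rank 951. No list had a promoter region at 14 of the 54 genes (25.9%, against 45.1% of all genes). They include the receptors CD40, TLR2 and TLR4, the kinase genes CHUK, IKBKE, IRAK1 and IRAK4, the adaptors TRAF5 and TANK, the ubiquitin ligase BIRC3, and CXCL8, CCL2, TNF and BCL2A1, which encode inflammatory mediators and a survival protein.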

How the data were processed

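Binding was measured by ChIP-seq in 16 libraries. Trimmomatic 0.3.2 and Bowtie2 2.2.9 are named in the submitters' processing notes, with Picard and bedtools. The authors deposited 4 region lists on hg38, 195C>G and WT with a modified chromosome 11. Per their names and columns, BCL11A and K562 were filtered by IDR over replicates and 195C>G and WT called with SPP. The deposited values are a score for BCL11A, and a signal and a −log10 false discovery rate for 195C>G and WT, whose −log10 values at their ceiling (4.07 and 4.34) do not rank regions. K562 has no value, so its order served as rank.

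The members and the list of 54 pathway genes were chosen with earlier results of these data known. All 10 members were named. Of other genes, those named had the best-ranked promoter region in a member's window, one of the 3 best pathway promoter ranks per list, or no promoter region in any list. CLPTM1, NEK8, PCNX3 and PROCA1 were named after their values were seen. Identical regions were counted once. For RELA, 4928 bp were added in the hg38 lists (298 of 1095 chromosome 11 genes after HBG1 differ by exactly this from RefSeq). The planned source was the RefSeq table, used here as the alternative. Counting was tested on simulated regions. Python 3.11.15, pandas 2.3.3 and scipy 1.17.1 were used. No controls or reads entered the values, and depth is unknown.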

Additional observations from a re-analysis of the deposited data

How the results depend on the processing

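No paired analysis was possible because no result comes from a test, and leaving out a replicate was not run because the lists are pooled or rest on 1 library. Under the alternatives 41 values were labelled as near the main value, 20 as moved and 0 as reversed. The first label is wide. With overlapping regions merged, the windows held 39 BCL11A, 39 K562, 33 195C>G and 54 WT regions, and all bore it. Pathway genes with a promoter region in the stronger 50% of the BCL11A list numbered 18, against 26, and bore it too. With the stronger 50% of each list, members with a promoter region numbered 2 in BCL11A. Members with a gene body region then numbered 2 in BCL11A and 3 in 195C>G. Pathway genes with a promoter region then numbered 21 in K562, and no share of all genes was computed for that count. Regions in the windows then numbered 16 in BCL11A, 24 in K562, 21 in 195C>G and 50 in WT, and the share of WT regions overlapped in 195C>G was 76.0%. Windows of 10 kb held 14, 17, 19 and 34 regions and windows of 100 kb 65, 80, 64 and 126 in the same order. Within 500 bp, 3 members had a K562 promoter region. With a reciprocal overlap of 50%, 25.8% of BCL11A regions were overlapped in 195C>G and 32.3% in WT. Placing RELA by the RefSeq table, or merging overlapping regions, both chosen after seeing the data for promoter counts, left each promoter count as it was. The unknown depth limits every missing region: it was not listed, which does not show that the factor was absent.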
